A study of Mus musculus with 6 samples.

Results

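Cytosolic ribosomal protein genes encode the protein part of the ribosome that translates the messenger RNAs of the nucleus. They were taken from the raw count table as symbols that start with Rpl or Rps and a digit, plus Rplp0, Rplp1, Rplp2 and Rpsa, without symbols holding -ps and without the Rps6k kinases. The rule gave 87 of 21240 counted genes. They comprised 43 genes of the large subunit, 31 of the small subunit, the 3 genes of the P stalk, and 10 like-named genes, among them paralogs such as Rpl22l1 and Rps27l. Rps19bp1 met the rule to the letter, although it is named for binding a ribosomal protein and is not one itself. The cells were NMuMG, a line of epithelial origin derived from mouse mammary gland, cultured until subconfluent and then kept for 6 h without serum and insulin. TGFβ1 was added at 5 ng/ml for 2 h or 12 h, and its solvent of HCl and BSA for 2 h served as vehicle, so every group shared the period without serum and insulin before treatment. Sequencing of stranded total RNA gave 6 libraries, 2 biological replicates in each of 3 groups. Because vehicle was sampled at 2 h, the effect of TGFβ at 12 h and that of a longer time without serum and insulin cannot be told apart.

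A ribosome joins a large and a small subunit, and each of its proteins is needed in about the same number, apart from the acidic stalk proteins P1 and P2, which are present in several copies. Many ribosomal protein mRNAs begin with a run of pyrimidines, the 5′ terminal oligopyrimidine (TOP) tract, through which the mTOR kinase adjusts their translation, so that output can change with little change in mRNA. The genes have also left many processed pseudogenes, intronless copies of their mRNAs, elsewhere in the mammalian genome. Reads that match both a gene and such a copy have no single place in the genome, and the authors kept uniquely mapped reads.

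The labelled cell type was checked first. Of 8 epithelial markers, Cdh1, Krt8, Krt18, Krt19 and Ocln passed the filter, whereas Epcam, Esrp1 and Cldn7 stayed under 1 CPM (counts scaled to a common library size) in each library. The summed epithelial level was 5023 and 5862 CPM in vehicle, 6513 and 6520 CPM at 2 h, and 10370 and 10410 CPM at 12 h. Of 7 fibroblast markers 2 passed the filter, with sums of 3.57 to 4.59 CPM in vehicle, 8.8 to 8.92 CPM at 2 h and 14.6 to 15.4 CPM at 12 h. Of 5 blood markers 1 passed the filter, Cd68, with sums of 4.14 to 6.88 CPM over the 6 libraries, and none of 4 endothelial markers did, with sums of 0.118 to 1.95 CPM. The epithelial sum was led by Krt8 and Krt18, which rose at 12 h (log2FC 1.63 and 1.53), whereas Krt19 fell (−1.95), and Cdh1 had a log2FC of −0.07 with an adjusted p of 0.762 by edgeR. The median log2FC of the 5 tested epithelial markers at 12 h was −0.075. The epithelial, fibroblast and endothelial sums were higher at 12 h than in vehicle, and their part in the results was not tested. Totals per library ran from 14705886 to 23786993 counts, and the nuclear noncoding RNA Malat1 held 2.64% to 5.34% of them. Of 8 known TGFβ response genes, 5 rose and 2 fell at 2 h, and 5 rose and 3 fell at 12 h. Among them Junb, a subunit of the transcription factor AP-1, was at 59.2 and 67.6 CPM in vehicle, 735 and 712 CPM at 2 h, and 1091 and 917 CPM at 12 h.

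Some stretches of these genes occur once in the genome and others several times. To show both kinds, the 50 bases at the middle of the coding part, the length of 1 read, are given for Rpl8 and Rpl4, which are among the most highly counted, and for Rps12 and Rpl26, which have moderate and few counts. Capitals mark bases that differ from the closest copy elsewhere in the NCBIM37 genome (mm9).
Rpl8: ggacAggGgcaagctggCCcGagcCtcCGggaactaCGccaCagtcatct
Rpl4: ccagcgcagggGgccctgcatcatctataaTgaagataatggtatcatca
Rps12: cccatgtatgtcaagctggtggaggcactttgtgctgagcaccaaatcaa
Rpl26: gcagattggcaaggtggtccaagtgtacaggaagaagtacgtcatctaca
Rpl8 lies at chr15:76734501-76736748 on the plus strand, and its window differed from the closest copy at 11 bases. That of Rpl4, at chr9:64021194-64026369 on the plus strand, differed at 2. Rps12, at chr10:23504990-23507015 on the minus strand, had 8 exact copies of its window elsewhere in the genome. Rpl26, at chr11:68715085-68720491 on the plus strand, had 3. A 50-base read from the windows of Rps12 and Rpl26 therefore had no unique position, whereas a read from those of Rpl8 and Rpl4 had one.

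The same measure was taken over whole transcripts. Of the 85 genes paired with a coding transcript of the GENCODE annotation on NCBIM37, the median gene had 62.6% of its 50-base windows repeated exactly elsewhere in the genome. The median over all tested genes was 1.11%, and 3.31% of all tested genes reached 50%. The 75 tested genes of the mitochondrial ribosome, which build a separate ribosome, had a median of 1.41%. Near-full-length copies, covering at least 80% of the transcript at 90% identity or more, existed for 53 of the 85 genes and numbered 614. Rpl7a, a large subunit protein, had 75 of them, Rpl29 and Rps2 had 45 each, and Rpl8 had none. Rps27 kept 1 unique window in its whole transcript.

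Levels per kb of transcript spanned 1243-fold among the 77 ribosomal protein genes that were tested and had a length. Among the highest were Rpl8, with a mean of 1627 CPM per kb, the stalk gene Rplp1 with 1290, Rpl4 with 1102 and Rps9 with 811. Over the 6 libraries Rpl8 ranged from 1331 to 2294 CPM per kb, Rplp1 from 959 to 2110, Rpl4 from 1004 to 1198 and Rps9 from 731 to 949. The ranges of Rpl8 and Rplp1 overlapped, as did those of Rplp1 and Rpl4, whereas those of Rpl4 and Rps9 were separate. Among the lowest were Rpl24 with 1.31 CPM per kb, Rps29 with 4.01, Rpl23a with 4.15 and Rps27a with 6.13. Their ranges were 0.753 to 2.36 for Rpl24, 2.26 to 6.48 for Rps29, 3.33 to 5.68 for Rpl23a and 5.17 to 8.20 for Rps27a, so that each overlapped with the next. Rpl24 was paired with a transcript of 4999 bases in 11 exons, which lowers its level per kb. The median over the 77 genes was 60.6 CPM per kb against 14.8 over all tested genes with a length, and 60 of the 77 lay above the latter.

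Genes with more exactly repeated sequence had lower levels. Across the 77 genes, Spearman's rho of the level per kb with the percentage of repeated windows was −0.533, and across all 10674 tested genes with a length it was 0.113. With windows counted as repeated at up to 2 differences in place of none, rho across the 77 genes was −0.187, so the relation was weaker. These correlations describe genes that share the same libraries and the same unique mapping. The 26 genes with under 50% of windows repeated had a median of 201 CPM per kb, and the 51 genes at or above 50% had a median of 41.1 CPM per kb. Divided by unique windows in place of length, the medians were 343 and 329 CPM per kb and rho was 0.012. The number of unique windows enters both quantities of that rho, so it cannot decide whether repeated sequence lowered the counts. Levels of individual genes are uncertain where reads had no unique place, and the size of that part was not tested.

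**Figure D1:**
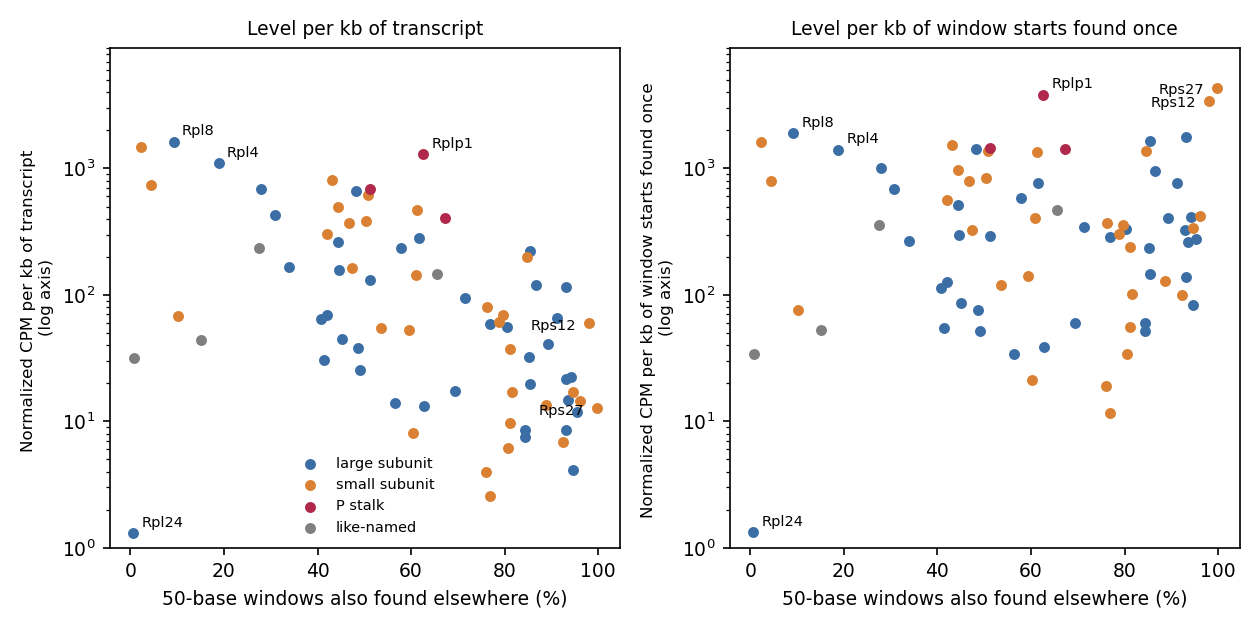
Level of each tested ribosomal protein gene on a log axis against the percentage of its 50-base windows also found elsewhere in the genome, as normalized CPM per kb of transcript (left) and per kb of window starts found once (right), with 1 point per gene colored by group. The left panel slopes downward (Spearman's rho −0.533) and the right panel does not (rho 0.012). In the right panel the number of unique windows enters both axes.

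Genes at the bottom of the range were close to the floor. Rpl26, a large subunit protein, had 0 counts in 5 libraries and 1 count in the 12 h replicate 2. Rpl34 had 6 and 10 counts in vehicle, 9 and 43 at 2 h, and 28 and 29 at 12 h, and Rpl29 had 12 to 29 counts. Those 3 large subunit genes did not pass the filter of at least 2 CPM in at least 2 libraries. Neither did the like-named genes Rps4l, Rpl10l, Rpl36al, Rpl39l and Rpl3l. Rps4l and Rpl3l had 0 counts in every library, and a count of 0 allows up to 0.126 to 0.204 CPM per library. In all, 79 of the 87 genes were tested, 74 of the 77 core genes and 5 of the 10 like-named ones.

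At the top of the range, counts exceeded what 1 read per position would give. With 31.1 counts per base of transcript on average over the libraries, Rpl8 was highest, Rplp1 had 25 and Rpl4 21.0, and 44 ribosomal protein genes had more than 1. The methods of the study name removal of duplicates, but the deposited counts of these genes were above what 1 read per start position allows.

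Ribosomal protein genes together held between 1.273% and 1.634% of all counts of a library. The share was 1.454% and 1.452% in vehicle, 1.375% and 1.634% at 2 h, and 1.273% and 1.423% at 12 h. The 2 h libraries lay on both sides of vehicle, and both 12 h libraries lay below it. Within each replicate number 12 h lay below 2 h, and the permutation test below did not use these numbers. Means were 1.453% ± 0.00143 (SD, n = 2) in vehicle, 1.505% ± 0.184 at 2 h and 1.348% ± 0.105 at 12 h. An exact two-sided permutation test gave p = 1.0 for 2 h against vehicle, 0.33 for 12 h against vehicle and 0.667 for 12 h against 2 h, and 2 libraries against 2 cannot give less than 0.33. Relative to the TMM effective library size (library totals scaled by edgeR's TMM factors), the difference of 12 h from vehicle was 0.019 percentage points in place of −0.105, so its direction depended on the scaling. On that scale both 2 h libraries (1.43% and 1.64%) lay above vehicle (1.39% and 1.36%), and the 2 h difference was 0.160 percentage points in place of 0.051 (exact permutation p = 0.33). In bulk RNA, fewer cells of a type and less RNA per cell cannot be told apart. The 10 genes with most counts held 63.4% of the ribosomal protein counts.

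**Figure D2:**
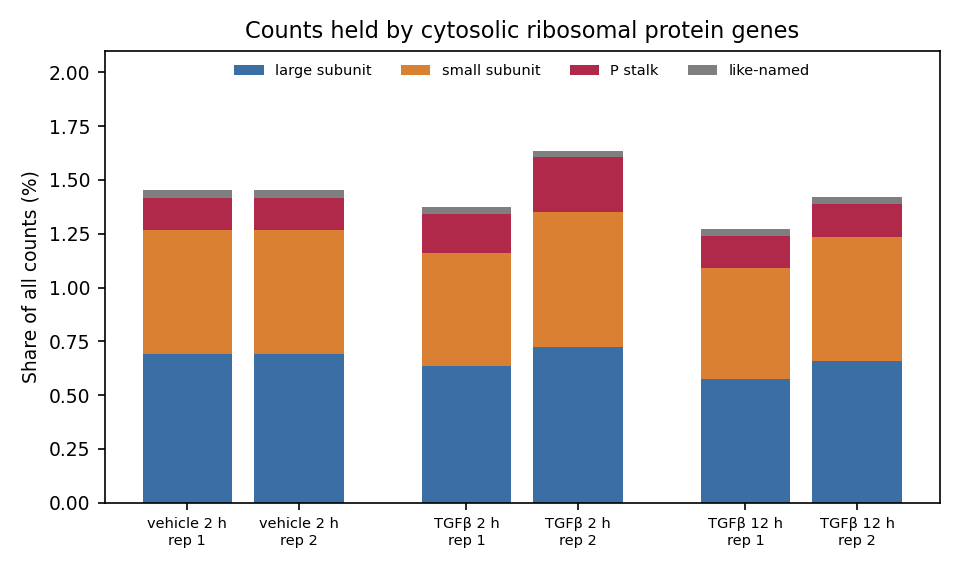
Share of all counts in percent held by ribosomal protein genes in each of the 6 libraries, as bars stacked by large subunit, small subunit, P stalk and like-named genes. The P stalk share was 0.1816% and 0.2555% in the 2 h libraries and between 0.1475% and 0.1557% in the other 4.

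Few ribosomal protein genes changed after 2 h of TGFβ. By edgeR's quasi-likelihood test, Benjamini-Hochberg adjusted over all 11080 genes tested, 2 rose and 1 fell among 79. Among all genes 15.2% were called, 9.91% higher and 5.25% lower. The median log2FC was 0.001 for ribosomal protein genes and −0.009 for all genes, and the 10th to 90th percentiles were −0.24 to 0.53 and −0.51 to 0.60. None had an absolute log2FC above 1, against 842 of all genes. The 95% interval of the log2FC lay within ±1 for 59 of the 79 genes (74.7%), and for 75.3% of all genes. The stalk gave 1 rise among 3 genes, the large subunit 1 rise and 1 fall among 40, and the small subunit (31 genes) and the like-named genes (5) none. At an unadjusted p under 0.05 there were 8 ribosomal protein genes, and 3289 of all 11080 genes.

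The 3 proteins of the P stalk form the lateral arm that recruits elongation factors to the ribosome. Rplp1, whose P1 protein pairs with P2, was at 483 and 475 CPM in vehicle, 787 and 1044 CPM at 2 h, and 542 and 501 CPM at 12 h. Both 2 h libraries lay above all others. It rose by 0.94 (SE 0.150) on the log2 scale at 2 h, with an adjusted p of 0.00906 by edgeR's quasi-likelihood test. Leaving out vehicle replicate 1 or 2 gave 0.95 and 0.92 with adjusted p-values of 0.0602 and 0.061.

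Rplp2, which encodes P2, was at 123 and 126 CPM in vehicle, 165 and 316 CPM at 2 h, and 150 and 153 CPM at 12 h. The 2 h libraries were above the others, but they differed from each other more than any other pair of replicates of this gene. Its log2FC at 2 h was 0.95 (SE 0.276) with an adjusted p of 0.0671, and it was 1.32 with 0.000504 without 2 h replicate 1 and 0.40 with 0.0675 without 2 h replicate 2. Snora52, a small nucleolar RNA gene, overlaps Rplp2 on the same strand, and its part in these counts was not tested. Rplp0, which encodes the stalk base that binds P1 and P2, was at 848 and 780 CPM in vehicle, 938 and 1203 CPM at 2 h, and 873 and 955 CPM at 12 h. The 2 h and vehicle libraries did not overlap, and the log2FC was 0.39 (SE 0.145, adjusted p = 0.13), with 0.54 and an adjusted p of 0.0304 without 2 h replicate 1 and 0.20 and an adjusted p of 0.404 without 2 h replicate 2.

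Rpl41 and Rpl39 encode the smallest proteins of the large subunit. Rpl41 was at 129 and 111 CPM in vehicle, 192 and 189 CPM at 2 h, and 131 and 124 CPM at 12 h. Both 2 h libraries lay above the other 4. It rose by 0.66 (SE 0.109) at 2 h (adjusted p = 0.0101), and the adjusted p was 0.0772 (log2FC 0.56) without vehicle replicate 2. Rpl39 lines the exit tunnel of the nascent chain. It was at 219 and 192 CPM in vehicle, 129 and 116 CPM at 2 h, and 165 and 141 CPM at 12 h. All treated libraries lay below both vehicle libraries. It fell by 0.75 (SE 0.129) at 2 h with an adjusted p of 0.0120, which was 0.0822 (log2FC −0.65) without vehicle replicate 1.

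The count at 2 h depended on the fit. With the replicate number as a block, 8 genes rose and 2 fell, against 29.1% called among all genes (16.4% higher), and no earlier call was lost. The block added Rplp0 (log2FC 0.38, adjusted p = 0.0445) and Rplp2 (0.90, 0.00935), and then all 3 stalk genes were called. It also added Rpl10a (0.59), Rps2 (0.47) and Rpl35 (0.39), which rose, and Rpl17 (−0.50), which fell. Leaving out a library gave 1 call without vehicle replicate 1, 1 without vehicle replicate 2 and 14 without 2 h replicate 1, where 5.75%, 6.51% and 19.9% of all genes were called.

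**Figure D3:**
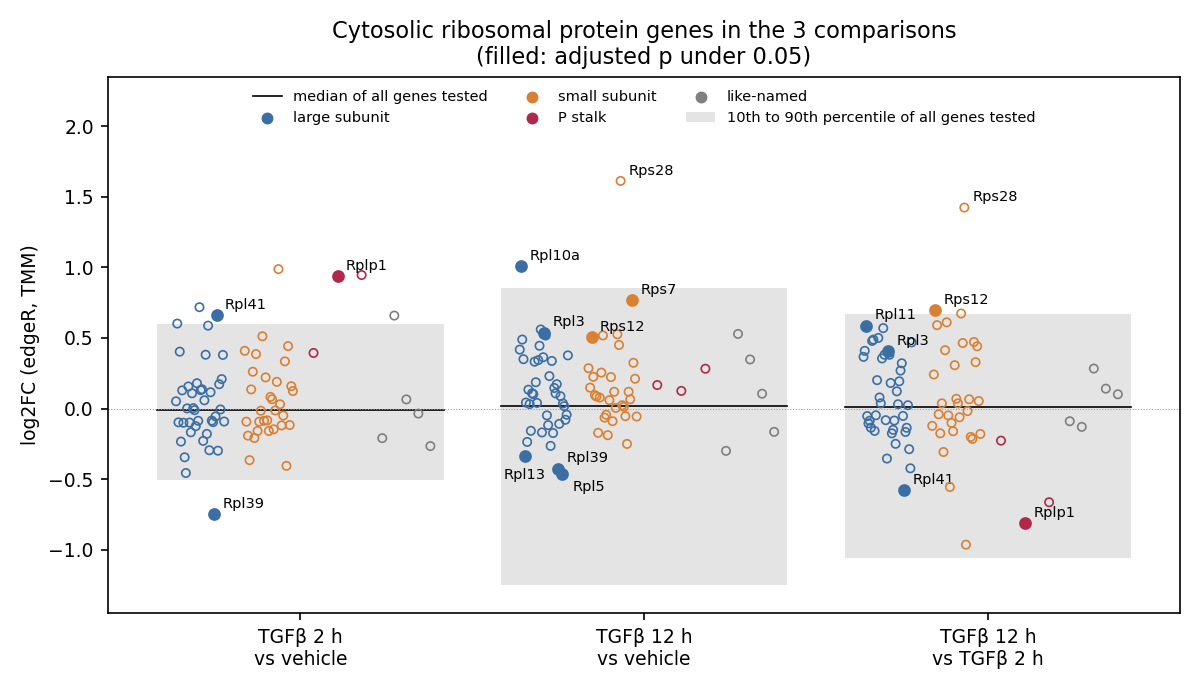
The log2FC of each tested ribosomal protein gene in the 3 contrasts, 1 point per gene colored by group and filled at an adjusted p under 0.05, over the median (line) and 10th to 90th percentiles (gray) of all genes tested. At 2 h the called genes were Rplp1, Rpl41 and Rpl39, and at 12 h they were Rpl10a, Rps7, Rpl3, Rps12, Rpl5, Rpl39 and Rpl13.

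After 12 h, 4 ribosomal protein genes rose and 3 fell among 79 tested against vehicle, whereas 43.3% of all genes were called, 21.8% higher and 21.5% lower. This contrast shares the vehicle libraries with the one at 2 h. The median log2FC was 0.11 for ribosomal protein genes and 0.02 for all genes, with 10th to 90th percentiles of −0.18 to 0.52 and −1.25 to 0.85. The sign of the ribosomal protein median depended on the fit, with −0.062 without 12 h replicate 2 and −0.021 with total counts in place of TMM factors. An absolute log2FC above 1 was seen in 2 ribosomal protein genes and in 2265 of all genes. The 95% interval lay within ±1 for 60 of the 79 (75.9%) against 63% of all genes. Of the large subunit 2 genes rose and 3 fell, of the small subunit 2 rose, and of the stalk and the like-named genes none was called. For comparison, 8 genes of the mitochondrial ribosome rose and 9 fell among 75.

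Rpl10a, whose protein sits in the L1 stalk of the large subunit, was at 14.4 and 21.3 CPM in vehicle, 20.5 and 33.6 CPM at 2 h, and 31.7 and 40.1 CPM at 12 h. Both 12 h libraries lay above both vehicle libraries, while the 2 h libraries overlapped with each. It rose by 1.01 (SE 0.290) at 12 h with an adjusted p of 0.0295. The adjusted p was 0.14 without vehicle replicate 1, 0.0731 without 12 h replicate 1, 0.165 without 12 h replicate 2, and 0.0536 with total counts in place of TMM factors.

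Rps7, a protein of the small subunit that also binds the ubiquitin ligase MDM2, was at 5.65 and 5.79 CPM in vehicle, 7.03 and 8.52 CPM at 2 h, and 8.97 and 10.6 CPM at 12 h. The 3 groups did not overlap. It rose by 0.77 (SE 0.195) at 12 h with an adjusted p of 0.0186, which lay between 0.052 and 0.115 when either vehicle or either 12 h library was left out. Rpl3, a protein near the peptidyl transferase center, was at 74.8 and 77.1 CPM in vehicle, 86.2 and 80.0 CPM at 2 h, and 101 and 120 CPM at 12 h. The 12 h libraries were the highest. It rose by 0.54 (SE 0.118), with an adjusted p of 0.0107 that became 0.0655 and 0.0505 without vehicle replicate 1 or 2 and 0.0868 without 12 h replicate 2.

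Rps12, a small subunit protein, was at 30.0 and 26.1 CPM in vehicle, 23.4 and 25.7 CPM at 2 h, and 41.5 and 38.0 CPM at 12 h. The 12 h libraries lay above the other 4. It rose by 0.50 (SE 0.130) with an adjusted p of 0.0201, which was 0.121 without vehicle replicate 2, 0.135 without 12 h replicate 1, 0.0695 without 12 h replicate 2 and 0.0601 with total counts. By the window measure few places of Rps12 allowed unique reads, since 98.1% of its windows were repeated elsewhere and it had 23 near-full-length copies. Where its reads fell was not tested. Rpl10a had 85.3% of its windows repeated and 5 such copies, Rpl3 91.2% and 17, and Rps7 60.3% and none. Of the other called genes with a paired transcript, Rplp1 had 62.6% and 5, Rpl13 86.6% and 14, and Rpl11 69.4% and none. Rpl5 had 48.7% and Rpl39 44.4%, with no such copy for either.

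Rpl5, which carries the 5S RNA into the large subunit together with Rpl11, was at 90.4 and 94.6 CPM in vehicle, 78.9 and 71.5 CPM at 2 h, and 59.9 and 74.2 CPM at 12 h. All treated libraries lay below vehicle. It fell by 0.46 (SE 0.131) at 12 h with an adjusted p of 0.0278, which was 0.0834 and 0.119 without vehicle replicate 1 or 2 and 0.146 without 12 h replicate 1. Rpl39, described above, had a log2FC of −0.43 (SE 0.128) at 12 h with an adjusted p of 0.0354. That p lay between 0.0576 and 0.197 when any vehicle or 12 h library was left out.

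Rpl13, a large subunit protein whose gene overlaps Snord68 on the same strand, was at 105 and 110 CPM in vehicle, 97.7 and 84.4 CPM at 2 h, and 81.4 and 87.9 CPM at 12 h. Treated libraries lay below vehicle. It fell by 0.34 (SE 0.112) with an adjusted p of 0.0484, which lay between 0.116 and 0.214 when any vehicle or 12 h library was left out and was 0.0616 with no filter. The number of calls was 3 without vehicle replicate 1 and 1 without vehicle replicate 2, 12 h replicate 1 or 12 h replicate 2. Among all genes 30.3%, 30.6%, 26.8% and 26.2% were called in these fits.

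With the replicate number as a block, 9 genes rose and 3 fell at 12 h, against 55.3% called among all genes (27.8% higher). The block added Rpl11 (log2FC 0.49, adjusted p = 0.0254), Rpl30 (0.52), Rps18 (0.53), Rps28 (1.29) and the like-named Rpl7l1 (0.35), each higher. Rps28, a small subunit protein, had 67 and 120 counts in vehicle, 56 and 205 at 2 h, and 108 and 600 at 12 h. Replicate 2 was higher in each group, and without the block its log2FC at 12 h was 1.61 (SE 0.932, adjusted p = 0.207). Without 12 h replicate 2 the log2FC was −0.31, and without 12 h replicate 1 it was 2.40.

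**Figure D4:**
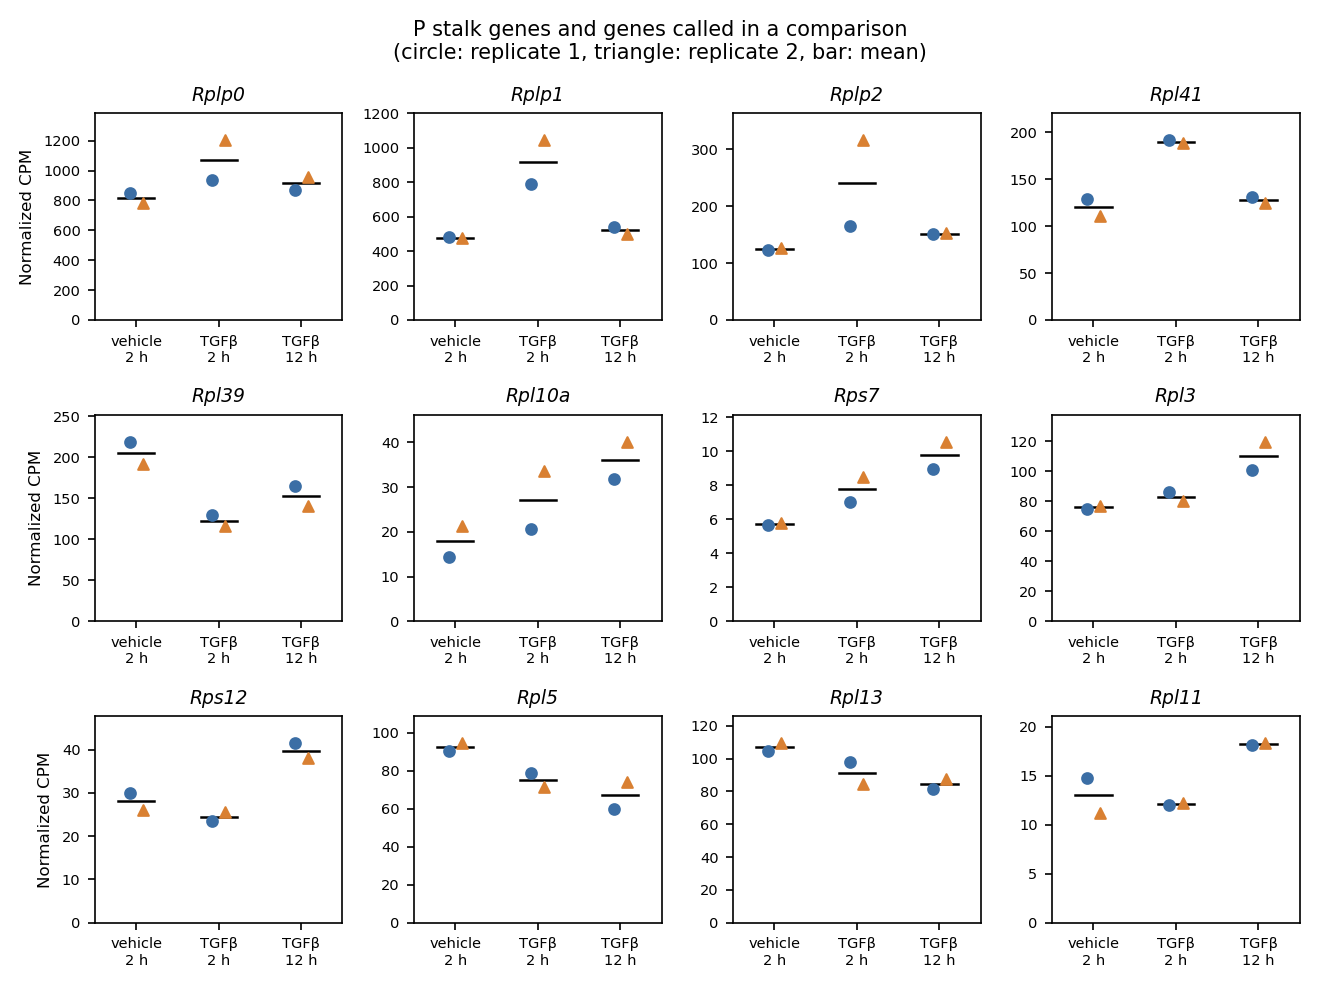
TMM-normalized CPM of the P stalk genes and of the genes called in a contrast, 1 panel per gene, with circles for replicate 1, triangles for replicate 2 and bars for the mean. Rplp1 and Rpl41 were highest in both 2 h libraries, Rpl39 was lowest in them, and Rps12 was highest in both 12 h libraries.

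Between 2 h and 12 h of TGFβ, 3 ribosomal protein genes were higher at 12 h and 2 were lower, against 34.1% called among all genes, 15.2% higher and 18.9% lower. The 2 that were lower had risen at 2 h. Rplp1 had a log2FC of −0.81 (SE 0.149, adjusted p = 0.00755) from 2 h to 12 h, and Rpl41 of −0.58 (SE 0.109, adjusted p = 0.00826). Against vehicle at 12 h, they had log2FC of 0.13 and 0.09, with 95% intervals of −0.23 to 0.48 and −0.17 to 0.35. Without 12 h replicate 1 or 2, the adjusted p was 0.0502 and 0.0671 for Rplp1 and 0.0569 and 0.0734 for Rpl41. The other 2 stalk genes, Rplp0 and Rplp2, had log2FC of −0.23 (adjusted p = 0.265) and −0.66 (adjusted p = 0.107). By edgeR with the replicate number as a block, Rplp2 was called (−0.61, adjusted p = 0.0290) and Rplp0 was not (−0.22, 0.163).

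The genes that were higher at 12 h than at 2 h were Rps12, Rpl11 and Rpl3. Rps12 had a log2FC of 0.70 (SE 0.130, adjusted p = 0.00798), and its adjusted p was 0.0714 without 12 h replicate 1. Rpl11, the partner of Rpl5 in the 5S particle and a binder of MDM2, was at 14.8 and 11.2 CPM in vehicle, 12.0 and 12.2 CPM at 2 h, and 18.2 and 18.3 CPM at 12 h. Both 12 h libraries were the highest. It had a log2FC of 0.59 (SE 0.173, adjusted p = 0.0400), and the adjusted p lay between 0.08 and 0.165 when any 2 h or 12 h library was left out.

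Rpl3 had a log2FC of 0.41 (SE 0.117), which ranged from 0.27 to 0.52 with 1 library left out, and an adjusted p of 0.0374. The latter was 0.1 without 2 h replicate 2, 0.0588 and 0.223 without 12 h replicate 1 or 2, 0.0672 and 0.0665 without vehicle replicate 1 or 2, and 0.0661 when the fit held just the 2 groups. With the replicate number as a block, 14 genes were higher and 6 lower (48.5% called among all genes, 23.3% higher), Rps28 (1.26) and Rps29 (−0.97) with the highest and lowest log2FC. Rps29 had 15 and 23 counts in vehicle, 50 and 42 at 2 h, and 23 and 27 at 12 h. It passed the filter through the 2 h libraries alone, so its lower level at 12 h is no support for a change. The count was 11 without 2 h replicate 1, 0 without 12 h replicate 1 and 1 without 12 h replicate 2, where 34.5%, 15.2% and 15.7% of all genes were called.

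Separation of the groups was also counted, with no test of the counts. The 2 h and vehicle libraries did not overlap for 25 of the 79 (31.6%, 15 higher and 10 lower), against 55.8% of all genes. At 12 h against vehicle the number was 37 (46.8%, 26 higher and 11 lower) against 76.8%, and at 12 h against 2 h it was 27 (34.2%, 20 higher and 7 lower) against 69%. The median SE of the log2FC was 0.196, 0.195 and 0.191 in these contrasts for ribosomal protein genes and 0.152, 0.153 and 0.152 for all genes. The 26 genes with under 50% of windows repeated had a median SE of 0.132, and 1, 2 and 0 of them were called. The 51 with 50% or more had medians of 0.229, 0.225 and 0.223 with 1, 5 and 4 calls, and 15.2%, 43.3% and 34.1% of all genes were called. Rpl41, with no transcript paired, belonged to neither.

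The median absolute difference between replicates of a ribosomal protein gene was 0.186 on the log2 scale in vehicle, 0.312 at 2 h and 0.231 at 12 h. It was 0.092, 0.186 and 0.09 for mitochondrial ribosomal protein genes and 0.152, 0.22 and 0.134 for all genes. Replicate 2 was higher in 45 of 79 ribosomal protein genes in vehicle, in 52 at 2 h and in 65 at 12 h. For mitochondrial ribosomal protein genes these numbers were 47, 57 and 58 of 75, and for all genes 5574, 5630 and 6336 of 11080. In 43 genes (54.4%) the difference had 1 sign in all 3 groups, 35 with replicate 2 higher, whereas 47.0% of all genes had 1 sign. No test was made of these differences.

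The 5 genes with the largest mean difference between replicates were Rps28 (1.78 on the log2 scale), Rps16 (1.13), Rpl32l (1.11), Rpl24 (1.04) and Rpl17 (0.986). Rps16, a small subunit protein, was at 2.41 and 8.91 CPM in vehicle, 4.75 and 9.98 CPM at 2 h, and 4.75 and 7.18 CPM at 12 h. Replicate 2 was the higher in every group for all 5. The 5 smallest differences belonged to Rps19bp1 (0.0658), Rps26 (0.0673), Rpl41 (0.103), Rps14 (0.108) and Rps15a (0.113). Rps26, a small subunit protein, was at 200 and 211 CPM in vehicle, 208 and 222 CPM at 2 h, and 204 and 208 CPM at 12 h. Across 77 genes, Spearman's rho of the mean difference between replicates with the GC content of the transcript was 0.275, against 0.377 across all tested genes with a length, and with transcript length it was 0.003.

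**Figure D5:**
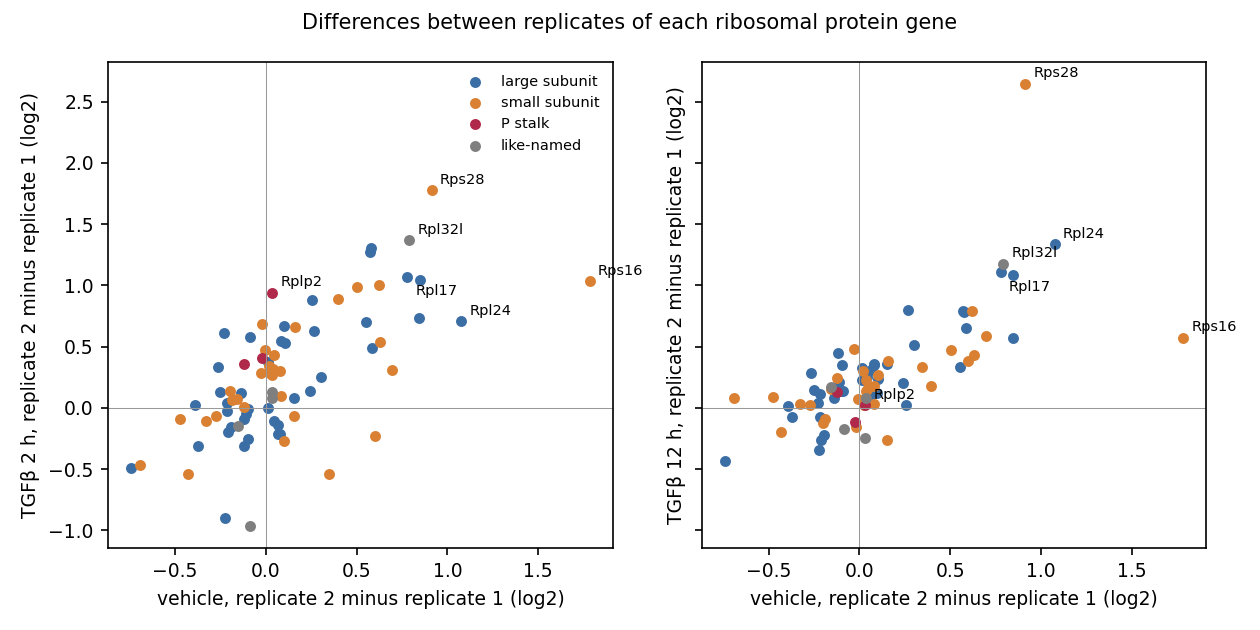
Replicate 2 minus replicate 1 on the log2 scale for each tested ribosomal protein gene, with vehicle on the horizontal axis of both panels and TGFβ at 2 h (left) or at 12 h (right) on the vertical axis, 1 point per gene. Points lie right of 0 for 45 of 79 genes and above 0 for 52 genes at 2 h and 65 at 12 h, with Rps28 the highest in both panels.

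Like-named genes were read beside the genes they resemble. Rps27l, a paralog of Rps27, was at 127 and 130 CPM in vehicle, 102 and 112 CPM at 2 h, and 124 and 105 CPM at 12 h, while Rps27 was at 2.92 to 5.80 CPM. Per kb their means were 234 and 12.6 CPM, with 27.6% of windows repeated for Rps27l and 99.7% for Rps27. Rpl22l1, a paralog of Rpl22, ranged from 47.1 to 92.1 CPM and Rpl22 from 165 to 225 CPM, or 147 and 427 CPM per kb.

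Rpl7l1, which is related to Rpl7, was at 109 and 97.6 CPM in vehicle, 114 and 102 CPM at 2 h, and 124 and 139 CPM at 12 h. Its 12 h libraries were the highest, with a log2FC against vehicle of 0.35 (SE 0.117, adjusted p = 0.0517, and 0.0215 with the block). Rpl7 ranged from 305 to 354 CPM. Rpl32l was at 1.88 to 6.15 CPM beside 290 to 432 CPM of Rpl32, and Rps19bp1 was at 24.7 to 28.8 CPM beside 75.3 to 109 CPM of Rps19. The counts of Rpl10l, Rpl36al and Rpl39l were 1 to 14, 0 to 1 and 0 to 4, whereas Rpl10, Rpl36a and Rpl39 had 244 to 525, 61 to 99 and 2298 to 3786. Rps4l and Rpl3l stood at 0 beside 2797 to 4732 counts of Rps4x and 1211 to 2335 of Rpl3.

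The start of the mRNA was examined for the TOP tract in RefSeq promoter windows on GRCm38.p6, a later build than the one of the counts. Windows of 300 bases, 250 before the annotated start and 50 from it on, were held for 66 of the 87 genes, 10 of which had 2 or 3. In 20 of 67 windows of core genes (29.9%) a pyrimidine run of at least 8 bases reached to within 2 bases of the start, against 6.78% of all 32851 windows and 6.67% of those of mitochondrial ribosomal protein genes. The stretches below run from 60 bases before the start to 20 bases from it on, with the pyrimidine run at the start in capitals. The first 3 were picked for long runs, and the last 3 belong to genes called in this data set. Starts are those of the annotation and were not measured here, so a run at another start is missed. Pyrimidine stretches further from the annotated start, as in those of Rps12 and Rpl39, are not in capitals.
Rpl7a: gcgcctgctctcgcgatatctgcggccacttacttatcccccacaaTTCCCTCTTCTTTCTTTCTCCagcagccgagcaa
Rpl27a: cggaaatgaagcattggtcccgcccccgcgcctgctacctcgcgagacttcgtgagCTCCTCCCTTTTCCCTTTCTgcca
Rplp2: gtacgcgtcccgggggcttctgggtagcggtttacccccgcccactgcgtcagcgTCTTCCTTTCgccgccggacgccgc
Rpl41: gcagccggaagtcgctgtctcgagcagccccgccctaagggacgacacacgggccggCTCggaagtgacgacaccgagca
Rpl39: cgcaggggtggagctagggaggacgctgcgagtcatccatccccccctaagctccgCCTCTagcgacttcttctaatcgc
Rps12: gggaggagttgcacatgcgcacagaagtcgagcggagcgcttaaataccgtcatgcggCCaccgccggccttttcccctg
They lie at chr2:26910747-26910826 on the plus strand for Rpl7a, chr7:109519135-109519214 on the plus strand for Rpl27a and chr7:141447591-141447670 on the plus strand for Rplp2. Those of the called genes lie at chr10:128549149-128549228 for Rpl41, chrX:37085203-37085282 for Rpl39 and chr10:23787190-23787269 for Rps12, each on the minus strand. The runs were 21, 20 and 10 bases in the first 3 and 3, 5 and 2 in the last 3. Other called genes with a window, Rps7, Rpl5, Rpl13 and Rpl11, had runs of 3, 1, 4 and 2 bases, and Rpl10a had 1 base in each of its 2 windows.

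Short motifs were counted in the same windows on both strands. The ETS-type motif CCGGAAG was in 37.3% of core windows, 34.7% of mitochondrial ribosomal protein windows and 8.86% of all windows. AAGATGGC, a YY1-type motif, was in 10.4%, 16% and 2.75%. The AP-1-type motif TGAGTCA was in 2.99% of core windows and 5.2% of all windows, and the SMAD-type palindrome GTCTAGAC was in 0 of the core windows and 0.213% of all windows. These are matches of letters, and binding was not measured here.

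Genes that act with the ribosomal proteins were read from lists written by hand. None of 6 elongation factors, none of 16 other mRNAs known for a TOP tract and neither Fau nor Rack1, which are among the ribosomal protein genes whose names fall outside the rule, was called in any of the 3 contrasts by edgeR without the block. Of all genes 15.2% were called at 2 h, 43.3% at 12 h and 34.1% between 12 h and 2 h. At an unadjusted p under 0.05 there was 1 elongation factor at 2 h and 1 between 12 h and 2 h, and 1 of the other TOP mRNAs in each contrast. Of all 11080 genes, 3289, 5718 and 5015 were under that value in the 3 contrasts. DESeq2 called 1 elongation factor at 2 h and 1 of the other TOP mRNAs at 2 h and at 12 h, and limma-voom none. Of all genes DESeq2 called 18.9%, 44.4% and 36.4% in the 3 contrasts, and limma-voom 15.2%, 43.1% and 33.9%. With the block, Eef2 (log2FC 0.37) rose and Npm1 (−0.38) fell at 2 h, Eif3f (0.40) rose at 12 h, and Eef1b2 (−0.27) and Nap1l1 (−0.34) were lower at 12 h than at 2 h. The block called 29.1%, 55.3% and 48.5% of all genes in the 3 contrasts. Fau, which had log2FC of 0.63 and 0.66 at 2 h and 12 h with adjusted p-values of 0.369 and 0.247, was called with the block in both (0.65 each, adjusted p = 0.00802 and 0.00339). Among 28 initiation factors, 2 rose at 2 h (7.14%, against 9.91% of all genes) and 6 at 12 h (21.4% against 21.8%), shares near the background, and with the block 3 rose and 1 fell at 2 h, against 29.1% of all genes called. At 12 h the block gave 9 rises and no fall, against 27.8% of all genes higher. Between 12 h and 2 h it gave 3 higher, against 23.3% of all genes. Eif6, which keeps the large subunit from joining the small one too early, was at 152 and 161 CPM in vehicle, 245 and 285 CPM at 2 h, and 295 and 307 CPM at 12 h. It rose by 0.76 (adjusted p = 0.00669) and by 0.94 (adjusted p = 0.000881). Eif3g rose by 0.38 and 0.68, and Eif3l rose by 0.51 at 12 h.

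Ribosome assembly was represented by 17 genes, and calls are given by contrast. Among these chaperones and assembly factors 1 rose and 1 fell at 2 h, 7 rose at 12 h against vehicle, and 9 were higher and 1 lower at 12 h than at 2 h. The shares higher were 41.2% at 12 h against vehicle and 52.9% against 2 h, beside 21.8% and 15.2% of all genes, and 11 rose at 12 h with the block, against 27.8% of all genes. Rrs1, which takes part in 5S RNA incorporation, was at 12.5 and 14.6 CPM in vehicle, 15.6 and 14.2 CPM at 2 h, and 35.1 and 32.6 CPM at 12 h. It rose by 1.32 at 12 h (adjusted p = 0.000644). Rrp12 (1.05) and Nob1 (1.00) rose at 12 h, Sqstm1 (0.80), better known as an autophagy receptor, rose and Rpf2 (−0.55) fell at 2 h, and Mdn1 was higher at 12 h than at 2 h (0.99).

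The mTOR kinase controls translation of TOP mRNAs, and S6 kinases, which phosphorylate Rps6, are among its targets. Among 18 tested genes of mTOR signaling and the S6 kinase family, 1 rose and 2 fell at 2 h, 2 rose and 5 fell at 12 h, and 3 were lower at 12 h than at 2 h. These shares of 16.7%, 38.9% and 16.7% stood beside 15.2%, 43.3% and 34.1% of all genes, and with the block the calls were 4, 11 and 6, against 29.1%, 55.3% and 48.5% of all genes. Deptor, an inhibitor of mTOR, was at 79.0 and 87.2 CPM in vehicle, 70.0 and 65.9 CPM at 2 h, and 19.8 and 20.8 CPM at 12 h. It fell by 2.04 at 12 h (adjusted p = 5.47e-05). Rps6ka1 (−1.12) and Rps6ka5 (−1.01) fell at 12 h, and at 2 h Rps6ka4 rose (0.60) while Rps6ka5 (−1.07) and Tsc1 (−0.50) fell. Eif4ebp2 was lower at 12 h than at 2 h (−1.12).

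Of 10 regulators of ribosomal protein genes 1 rose at 2 h, and 3 rose and 2 fell at 12 h, shares of 10% and 50% beside 15.2% and 43.3% of all genes. Myc, which activates genes of ribosome production, was at 12.5 and 21.0 CPM in vehicle, 16.2 and 18.4 CPM at 2 h, and 59.6 and 65.8 CPM at 12 h. It rose by 1.91 at 12 h (adjusted p = 0.00112), with its partner Max (0.75), while Mycn fell by 1.22. Zbtb17 rose at 2 h (0.59). Of 4 genes of the p53 checkpoint that ribosomal proteins feed, Mdm4 fell at 2 h (−0.36), and Trp53 (0.51) and Mdm2 (0.39) rose at 12 h, shares of 25% and 50% beside 15.2% and 43.3% of all genes. Mdm2 was also higher at 12 h than at 2 h (0.63).

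Genes of the mitochondrial ribosome gave 1 rise and 1 fall at 2 h, 8 rises and 9 falls at 12 h against vehicle, and 3 higher and 8 lower at 12 h than at 2 h. The calls were 2, 17 and 11 among 75, against 15.2%, 43.3% and 34.1% of all genes, and with the block the shares were 4%, 36% and 26.7% against 29.1%, 55.3% and 48.5%. Mrps6 was at 120 and 123 CPM in vehicle, 108 and 115 CPM at 2 h, and 36.9 and 45.8 CPM at 12 h, and it fell by 1.56 (adjusted p = 0.000222). Mrpl50 fell at 2 h (−0.88) and at 12 h (−1.17), Mrpl42 fell at 12 h (−0.66) and Mrps12 rose at 2 h (0.62). Mrpl4 (−0.81) and Mrps28 (−0.74) were lower at 12 h than at 2 h. Of 5 abundant noncoding RNAs, Neat1 fell at 12 h (−0.64) and no other was called in the 3 contrasts by edgeR without the block. Of these 5, DESeq2 called 1, 1 and 3, against 18.9%, 44.4% and 36.4% of all genes. With the block, Rmrp (1.03) rose at 2 h, Neat1 (−0.63) and Xist (−0.39) fell at 12 h, and Malat1 (0.61) was higher and Neat1 (−0.51) and Rmrp (−0.65) were lower at 12 h than at 2 h.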

How the data were processed

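Stranded total RNA was measured in 6 libraries of NMuMG cells. Per the study's methods, the authors filtered 50-base single reads, aligned them to mm9 with subjunc, kept uniquely mapped reads, removed duplicates with SAMtools 0.1.19 and counted exon reads by strand with featureCounts. The deposited values are raw counts of 21240 genes with no normalization, whole numbers that sum to 14705886 to 23786993 per library, so genes under a few CPM are limited by counting error. Groups came from the submitters' labels.

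Counts were analysed with edgeR 4.0.16 in R 4.3.3 by the quasi-likelihood test with TMM factors (0.961 to 1.07) in 1 fit of 6 libraries and 3 groups. A gene was tested if 2 or more libraries reached 2 CPM, which 11080 genes passed. The Benjamini-Hochberg adjustment ran over all of them within each contrast, at 0.05, two-sided. CPM are TMM-normalized, and the SE is the absolute log2FC divided by the square root of F. The scripts were tested on simulated data. Deviations from the group means were correlated between libraries that share a replicate number, with r over all tested genes of 0.708 (vehicle and 2 h), 0.263 (vehicle and 12 h) and 0.392 (2 h and 12 h), so the fit with the number as a block is given beside the results. The pairing comes from these data, since the labels give just the numbers.

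Repeated sequence was counted on NCBIM37 (the build of mm9) in 50-base windows of 1 GENCODE coding transcript per gene, and copies were found with BLAST 2.17.0 (Python 3.11.15, numpy 2.4.6, pandas 2.3.3, scipy 1.17.1, matplotlib 3.10.9). Named genes were the called ones, the 5 highest and lowest by level per kb, the 5 with the largest and smallest difference between replicates, and all like-named genes with the gene they resemble. From each list of other genes, up to 3 of the called genes with the largest change per contrast were named, and any other gene was chosen after its values were seen. The genes and lists were chosen with earlier results of these data known, and no set test was run. Alternatives were limma-voom (limma 3.58.1), DESeq2 1.42.0, DESeq2 size factors, total counts, 2 other filters, the block, a prior count of 2, fits of 2 groups and each library left out in turn. Chromatin data of the study were not used here. Some genes that the naming rule takes in are not reported here.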

Additional observations from a re-analysis of the deposited data

Results flagged for a closer look

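For 5 ribosomal protein genes the level differed between 2 h and 12 h of TGFβ by edgeR's quasi-likelihood test of that contrast. That was 5 of the 79 tested against 34.1% of all genes, and with the replicate number as a block 20 against 48.5%. Vehicle was sampled at 2 h only, so TGFβ and the longer time without serum and insulin cannot be told apart. The log2FC at 12 h minus that at 2 h was −0.81 for Rplp1 and −0.58 for Rpl41, which were above vehicle at 2 h and near it at 12 h. It was 0.41 for Rpl3, 0.59 for Rpl11 and 0.70 for Rps12, whose 12 h libraries were the highest. Both log2FC against vehicle share its libraries, which cancel in the difference, so these values are those of 12 h against 2 h.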

How the results depend on the processing

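The numbers of ribosomal protein genes called, 3 at 2 h, 7 at 12 h and 5 between 12 h and 2 h, were 10, 12 and 20 with the replicate number as a block, and no call was lost by pairing. Among all genes the shares called were 15.2%, 43.3% and 34.1%, and 29.1%, 55.3% and 48.5% with the block. Leaving out each library in turn, with a lone library assumed to vary like the other groups, they ranged from 1 to 14, from 1 to 10 and from 0 to 11. The median log2FC ranged from −0.046 to 0.058, from −0.062 to 0.188 and from −0.105 to 0.190. With total counts in place of TMM factors it was −0.107 at 2 h and −0.021 at 12 h, while the median of all genes moved to −0.119 and −0.114. The difference in the share of counts, in percentage points, ranged from −0.079 to 0.181 at 2 h, from −0.180 to −0.031 at 12 h and from −0.286 to −0.027 between them when a library was left out, and at 12 h it was 0.019 with the TMM effective library size. The log2FC of Rps28 at 12 h ranged from −0.31, a reversal without 12 h replicate 2, to 2.40 without 12 h replicate 1. The causes were not tested. The limma-voom, DESeq2 and DESeq2 size factor fits called 3, 4 and 3 genes at 2 h, 8, 8 and 7 at 12 h, and 6, 6 and 5 between 12 h and 2 h. Of all genes limma-voom called 15.2%, 43.1% and 33.9%, DESeq2 18.9%, 44.4% and 36.4%, and the DESeq2 size factor fit 15.3%, 43.3% and 34.2%. Log2FC values inside the intervals given are not excluded by these data, and the intervals cover the spread between 2 libraries a group.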
